A study of Mus musculus with 91 samples.

Results

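Among 91 pyramidal neurons (Pyrs) recorded in layer 5 (L5) of the mouse primary visual cortex, 8 held RNA above a set threshold for genes that define GABAergic inhibitory neurons. They were chosen by the summed log2(count + 1) of 3 genes, Slc32a1, Gad1 and Gad2, being above 7, the threshold by which the study set neurons aside as high in inhibitory markers. The labels do not say which neurons the study set aside, so the members here follow from the deposited counts alone. These 8 are called the carrying neurons here, the 66 with no count of any of the 3 genes are called lacking neurons, and the 17 in between are called intermediate. A pair of the carrying libraries, Pyr←ORBvl neurons 5 and 11, were near-identical and were averaged and counted as 1, so that 7 carrying neurons were compared with 66 lacking neurons.

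The labels give every neuron as wild-type, which the study's methods describe as C57, and the groups no difference in genotype or treatment. Over all its experiments the study used mice of both sexes, 8 to 12 weeks old. Each neuron was patched in an acute slice, typed from its hyperpolarization-activated current (Ih), and then drawn into the recording pipette for a Smart-seq2 library. The types were Pyr←LP (47 neurons) and Pyr←ORBvl (44 neurons). They are named for input from the lateral posterior thalamic nucleus and from the ventrolateral orbitofrontal cortex. For these 91 neurons that input was inferred from Ih. The typing used no RNA. The labels name no mouse, and the study used fewer mice than neurons, so neurons of 1 mouse entered as separate replicates and the p-values describe the spread between neurons.

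GABA is made from glutamate by the 2 glutamate decarboxylases, encoded by Gad1 and Gad2, and is loaded into synaptic vesicles by the transporter encoded by Slc32a1. Cortical interneurons express this set together and are divided into classes by further genes, chiefly Pvalb (a calcium-binding protein), Sst and Vip (neuropeptides), and Lamp5 or Sncg. Pyramidal neurons are glutamatergic, load vesicles with the transporter encoded by Slc17a7, and are taken to lack this machinery. In Patch-seq, a pipette crosses tissue that holds the processes of other cells, and marker genes of other classes are therefore routinely examined.

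Gad1 was the most widespread of the 3 genes. It was counted in 7 of 7 carrying neurons, Gad2 in 6 and Slc32a1 in 2, and these values are a description because they chose the neurons. Pyr←LP neuron 29 held 154 counts of Gad1 and 219 of Gad2, Pyr←LP neuron 6 held 67 and 77, and Pyr←LP neuron 34 held 184 and 65. In these 3 neurons both decarboxylases were counted, Gad2 ahead of Gad1 in 2 of them, and Slc32a1 was at 0.

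The Pyr←ORBvl neurons were less even. Pyr←ORBvl neuron 3 held 924 counts of Gad1, 9 of Gad2 and 2 of Slc32a1. Pyr←ORBvl neurons 5 and 11 held 271 and 280 counts of Gad1 and none of Gad2 or Slc32a1, and Pyr←ORBvl neuron 26 held 31 of Gad1 and 7 of Gad2. Pyr←ORBvl neuron 29 was the weakest member, with 3 counts of Gad1, 5 of Gad2 and 5 of Slc32a1. It entered the group by having a few counts of each gene, whereas the pair entered through Gad1 alone.

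In FPKM (fragments scaled to gene length and sequencing depth), Gad1 stood at 87.7 in Pyr←ORBvl neuron 3 and at 1.64 in Pyr←ORBvl neuron 29. Gad2 stood at 86.2 FPKM in Pyr←LP neuron 29 and at 69.5 FPKM in Pyr←LP neuron 6, above Gad1 in the same neurons, at 35.6 and 35.5 FPKM. Among the carrying neurons, Slc32a1 reached no more than 9.96 FPKM, in Pyr←ORBvl neuron 29. Over the 90 neurons (pair as 1), 19 held a count of Gad1, 12 of Gad2 and 3 of Slc32a1, and Gad1 and Gad2 were counted together in 8, of which 6 were carrying neurons. In GRCm38, Gad1 lies at chr2:70561303-70602014, Gad2 at chr2:22621015-22693877 and Slc32a1 at chr2:158607260-158615747. The annotation places 697 of the 2797 exonic bases of Slc32a1 under an exon of Gm14205 on the opposite strand, and the library kit did not mark strand.

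The threshold fell inside a continuous range. The lowest members had sums of 7.17 (Pyr←ORBvl neuron 29) and 8.00 (Pyr←ORBvl neuron 26), and the highest neurons left out had sums of 6.97 (Pyr←LP neuron 31 and Pyr←ORBvl neuron 27) and 6.73 (Pyr←LP neuron 42). Because the rule adds raw counts, it depends on depth. The 3 genes together made up 822 CPM (counts scaled to a total of 1000000 per neuron) in Pyr←ORBvl neuron 27, which fell just outside with 34056 total counts, and 72.4 CPM in Pyr←ORBvl neuron 29, which fell just inside with 179525.

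**Figure D1:**
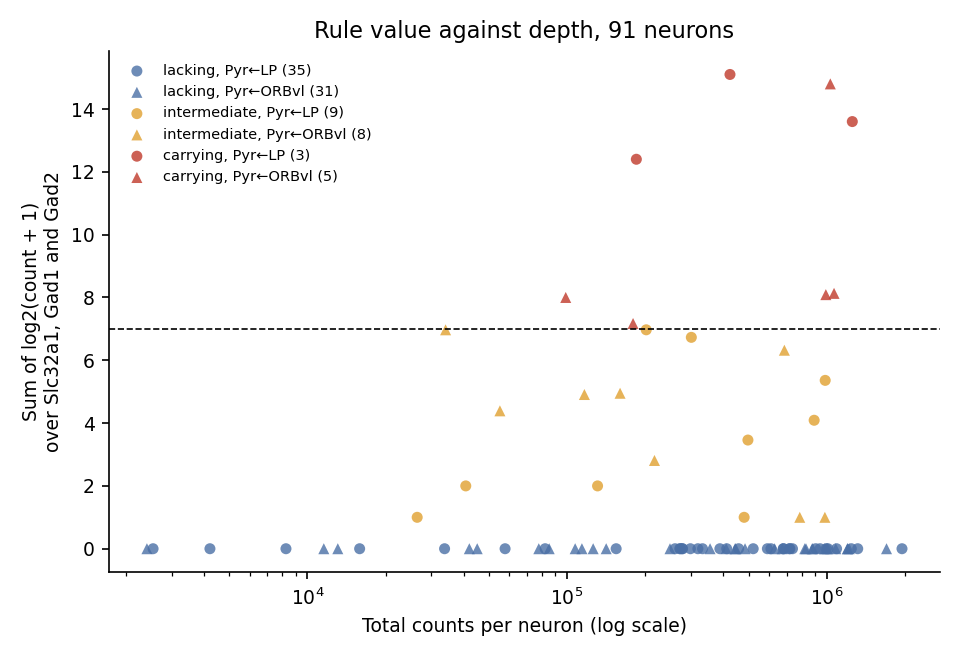
Sum of log2(count + 1) over Slc32a1, Gad1 and Gad2 (vertical axis) against total counts per neuron (horizontal axis, log scale) for all 91 neurons; colour gives the group and shape the neuron type. The dashed line is the threshold of 7, and the carrying neurons lie above it at totals from 98820 to 1254385.

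Total counts overlapped between the groups. Carrying neurons held 98820 to 1254385 counts (median 423999) and lacking neurons 2410 to 1948982 (median 445008), with p = 0.588 in a two-sided exact permutation test of the rank sum (n = 7 and 66). The carrying neurons did hold more detected genes, 3081 to 11013 (median 3995) against 1015 to 7152 (median 3386) (p = 0.0228, same exact test). Pyr←LP neuron 34, with 11013 genes, stood apart from all others, and without it the difference did not pass (p = 0.0778, exact permutation test, n = 6 and 66). After every neuron of at least 90000 counts was thinned to 90000, the medians were 3388 and 3112 genes (p = 0.0997, exact permutation test, n = 7 and 52).

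Carrying neurons were not confined to 1 neuron type or title prefix. Of the 7, 4 were Pyr←ORBvl (57.1%), against 31 of 66 lacking neurons (47%), with two-sided p = 0.703 in Fisher's exact test (odds ratio 1.51). The sample titles begin with 17 different prefixes, whose meaning the labels do not give, and the 7 carrying neurons fell under 6 of them when the pair was placed under its first prefix. The pair itself carried 2 different prefixes. Its libraries correlated at r = 0.993 in log2(count + 1) across genes, where the next closest of 4095 pairs reached 0.711, and shared 3723 genes with a count, while 831 genes, none above 15 counts, were seen in only 1 library of the pair. Their chi-square per gene of 3.36 exceeded counting error alone, which gives about 1, but the next 2 pairs by correlation gave 22.3 and 16.3.

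The first question was whether these neurons also differed in genes that the rule did not use. A gene was tested when 7 or more of the 73 neurons held 5 or more counts of it, which 8800 genes did. edgeR (quasi-likelihood test, Benjamini-Hochberg adjustment) called 7 of them (0.0795%), all higher in the carrying neurons, where a call needs a more than 2-fold difference and an adjusted p below 0.05. They were Npy, Pik3c3, Cox6a2, Gm15964, Pcp4l1, Alcam and Nkap. Apart from Gm15964, these genes held 5 or more counts in only 2 to 4 lacking neurons, so 6 of the 7 passed the filter through the carrying neurons alone and their direction was largely set by the filter. At an unadjusted p under 0.05 there were 417 genes, 140 higher and 277 lower, a balance that depended on the test, since limma on log2(CPM + 1) gave 987 higher and 7 lower. The median log2 fold change (carrying minus lacking) over all tested genes was −0.13. Each of the 7 held 5 or more counts in fewer than 10 neurons, so that a filter of 10 neurons tested none of them and called 0 of 7186 genes (edgeR, 204 at an unadjusted p under 0.05). DESeq2 called none of the 7 and 45 other genes, all lower, and Fisher's exact test on the share of neurons with a count called 0 (955 at an unadjusted p under 0.05, 950 of them higher).

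Npy encodes neuropeptide Y, a peptide of several interneuron classes, in particular of neurogliaform cells and of part of the Sst class. It was counted in 4 of 7 carrying neurons, at 4009 CPM in Pyr←LP neuron 29, 289.7 in Pyr←ORBvl neuron 29, 89.3 in Pyr←LP neuron 34 and 70.8 in Pyr←ORBvl neuron 26, and was at 0 in the other 3. In the lacking neurons it was counted in 5 of 66, at up to 281 CPM. The groups overlapped, and 89.9% of the summed CPM of the carrying neurons came from Pyr←LP neuron 29. The fitted log2 fold change was 6.76 ± 1.12 (SE; adjusted p = 3.76e-05), and without Pyr←LP neuron 29 it was 3.79 and no longer called (edgeR, adjusted p = 0.401). Npy lies at chr6:49822710-49829507.

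Cox6a2 encodes a subunit of cytochrome c oxidase, the last enzyme of the mitochondrial respiratory chain, and in cortex it marks fast-spiking parvalbumin cells. It was counted at 546 CPM in Pyr←ORBvl neuron 3, 481 in Pyr←LP neuron 6, 61.3 in Pyr←ORBvl neuron 29 and 15.1 in Pyr←LP neuron 34. The 3 other carrying neurons were at 0, and 4 of 66 lacking neurons held a count, at up to 70.2 CPM. The log2 fold change was 5.46 ± 1.17 (SE; adjusted p = 0.0131). All 4 neurons with Cox6a2 were also among the 5 with Pvalb. The gene lies at chr7:128205435-128206366, and 70 of its 680 exonic bases are shared with Itgad on the opposite strand.

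Pcp4l1, which encodes a small relative of the calmodulin-binding protein PCP4, was the called gene seen in most carrying neurons. It was counted in 5 of 7, at 581 CPM in Pyr←ORBvl neuron 3 and between 67 and 132 CPM in the other four, and in 3 of 66 lacking neurons, at up to 119 CPM. Its log2 fold change was 5.32 ± 1.18 (SE; adjusted p = 0.0147). It belonged to none of the cell type lists. It lies at chr1:171173264-171196268.

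The remaining called genes belonged to none of the lists either. Pik3c3, the catalytic subunit of a lipid kinase that acts in autophagy and endosomal traffic, was counted in 4 of 7 carrying and 5 of 66 lacking neurons, with a log2 fold change of 5.81 ± 1.20 (SE; adjusted p = 0.00956). Its counts were highest in Pyr←LP neuron 6 (1379.5 CPM) and in the averaged pair (383 CPM). Alcam, a cell adhesion molecule of the immunoglobulin family, was counted in 4 of 7 and 8 of 66, with a log2 fold change of 5.04 ± 1.17 (SE; adjusted p = 0.0326), highest in Pyr←LP neuron 6 at 492 CPM. It lies at chr16:52248996-52453081. For both genes the lacking neurons with a count reached into the range of the carrying neurons, at up to 173 CPM for Pik3c3 and 242 CPM for Alcam.

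Gm15964 and Nkap did not meet the naming rule and are named because they complete the 7. Gm15964 was counted in 2 carrying neurons, with 99.5% of the summed CPM in Pyr←ORBvl neuron 3, and without that neuron its log2 fold change was −1.11. The annotation places 1014 of its 2745 exonic bases opposite exons of Gart. Nkap, which encodes a nuclear protein of transcriptional repression and splicing, was counted in 3 of 7 carrying and 4 of 66 lacking neurons, with a log2 fold change of 4.23 ± 1.01 (SE; adjusted p = 0.0455).

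**Figure D2:**
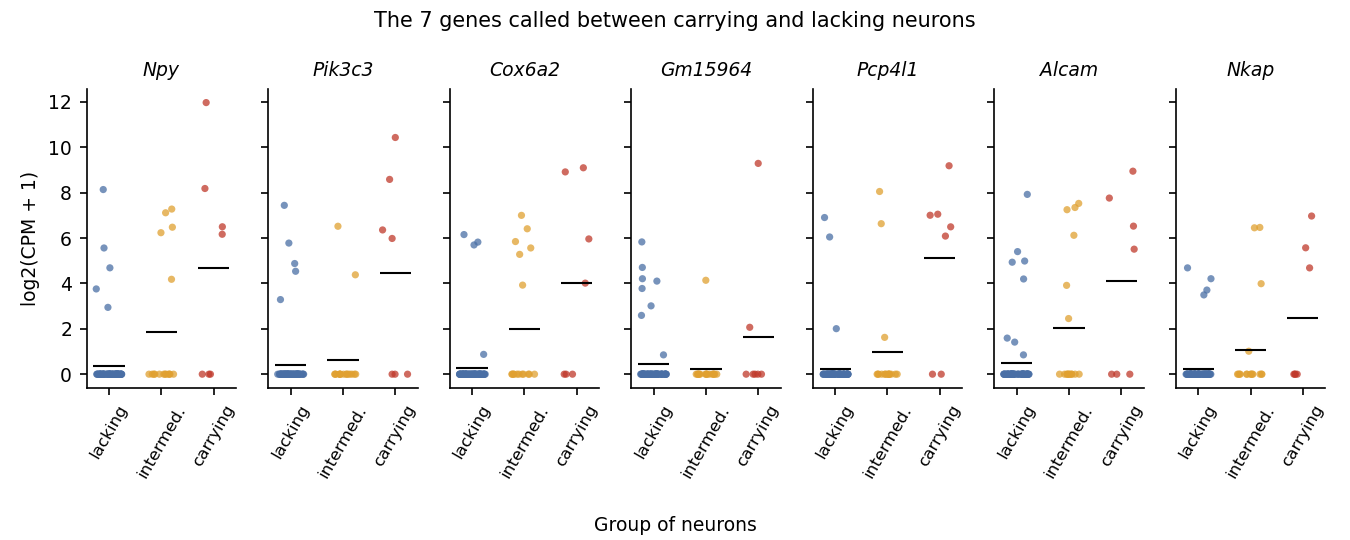
Levels of the 7 called genes as log2(CPM + 1) (vertical axis) in the 66 lacking, 17 intermediate and 7 carrying neurons (points, the averaged pair as 1; horizontal lines are group means). Each gene is at 0 in at least 2 of the 7 carrying neurons and is counted in some lacking neurons, at up to 281 CPM for Npy.

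None of the 7 called genes was counted in every carrying neuron. Each carrying neuron held between 2 and 6 of the 7 called genes (median 4), with 6 in Pyr←LP neuron 34 and 2 in Pyr←LP neuron 29 and in the averaged pair. Of the lacking neurons, 40 of 66 held none and 8 held 2 or more. Under the 6 title prefixes that held both groups, with the pair under its first prefix, the mean CPM was higher in the carrying neurons under 4 for Cox6a2, Pik3c3 and Pcp4l1, under 3 for Npy, and lower under none of them for these 4 genes. It was higher under 3 and lower under 2 for Alcam, higher under 3 and lower under 1 for Nkap, and higher under 2 and lower under 1 for Gm15964. Because the 7 were picked for being higher in these same neurons, the direction within prefixes is a description. With counts summed per prefix and group all 7 were tested, at log2 fold changes of 3.97 to 6.49, and none was called, nor was any of the 9009 genes tested (edgeR, 565 at an unadjusted p under 0.05). With the prefix as a block none of the 7 passed the filter.

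The second question was which interneuron classes the carrying neurons resembled. The lists held 169 genes in 17 groups, chosen with earlier results of these data known, and 97 of them passed the filter. A gene that passed through counts in the carrying neurons alone would have had to differ, so the counts per list are descriptive. Npy and Cox6a2 were the only list genes called by edgeR. By limma on log2(CPM + 1), which called 42 of 8800 genes (0.477%), all higher, the called list genes included Npy, Cox6a2 and Sst.

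Sst encodes somatostatin, which defines a class of dendrite-targeting interneurons. It was counted in 5 of 7 carrying neurons, at 658 CPM in Pyr←ORBvl neuron 26, 217 in Pyr←LP neuron 29, 165 in Pyr←LP neuron 34, 139 in Pyr←ORBvl neuron 29 and 46.6 in the averaged pair. It was at 0 in Pyr←LP neuron 6 and Pyr←ORBvl neuron 3. Of the lacking neurons, 7 of 66 held a count, at up to 229.7 CPM. The log2 fold change was 4.48 ± 1.24 (SE), with an adjusted p of 0.2 by edgeR and 0.0014 by limma.

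Pvalb, which encodes the calcium buffer parvalbumin, showed the reverse distribution in part. It was counted at 1612 CPM in Pyr←ORBvl neuron 3, 459.8 in Pyr←LP neuron 6, 201 in Pyr←ORBvl neuron 29, 60.7 in Pyr←ORBvl neuron 26 and 23.1 in Pyr←LP neuron 34. The 2 neurons at 0 for Sst were the 2 highest for Pvalb, and the 2 at 0 for Pvalb, Pyr←LP neuron 29 and the averaged pair, held Sst. Pvalb was also counted in 14 of 66 lacking neurons, at up to 989.7 CPM. Its log2 fold change of 2.94 ± 1.29 (SE) was not called (edgeR, adjusted p = 0.724), and without Pyr←ORBvl neuron 3, which held 68.4% of the summed CPM of the carrying neurons, it was 1.44.

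Vip was counted in 3 of 7 carrying neurons, at 107, 91.1 and 5.57 CPM in Pyr←LP neuron 34, Pyr←ORBvl neuron 26 and Pyr←ORBvl neuron 29, and in 0 of 66 lacking neurons, which allows a share of neurons with a count of up to 4.55% and does not show that the gene was not expressed. It did not pass the filter. Adarb2, which marks interneurons of caudal origin, held 5 counts in Pyr←LP neuron 6 and 10 in Pyr←LP neuron 29, and 1 lacking neuron held a count. Lhx6, a factor of the Pvalb and Sst lineages, Sncg and the receptor tyrosine kinase gene Erbb4 were at 0 in all 7 carrying neurons, which allows a share of up to 42.9%. Lhx6 was counted in 1 and Sncg in 5 of 66 lacking neurons. Erbb4 was at 0 in all 66 lacking and all 17 intermediate neurons as well, so its absence does not set the carrying neurons apart. Lamp5 was common in both groups, with counts in 5 of 7 and 42 of 66 neurons and a log2 fold change of −0.10 ± 1.36 (SE; edgeR, adjusted p = 0.999).

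Among the other genes of inhibitory neurons, Abat, which encodes the enzyme that breaks down GABA, was tested and not called, at a log2 fold change of 0.98 ± 1.51 (SE; edgeR). None of the 12 interneuron transcription factor genes with a row of their own passed the filter. The other of the 13, Dlx6os1, has 2 rows under 1 symbol and is not counted here.

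Below the filter, the transcription factor genes were sparse but unevenly placed. Prox1, a factor of caudally derived interneurons, was counted in 4 of 7 carrying and 1 of 66 lacking neurons, with 159 counts in Pyr←LP neuron 29 and 21 in Pyr←ORBvl neuron 29. Dlx2, a factor that specifies GABAergic fate in the ventral forebrain, was counted in 2 of 7 and 0 of 66, with 110 counts in Pyr←LP neuron 29 and 31 in Pyr←LP neuron 34. Both genes were chosen after their values were seen.

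Over all 55 genes of the 6 interneuron lists that have a row of their own, carrying neurons held counts of 7 to 37 genes (median 10) and lacking neurons of 0 to 11 (median 4.5). After thinning to 90000 counts the ranges were 7 to 31 (median 9, n = 7) and 0 to 10 (median 4, n = 52). The highest was Pyr←LP neuron 34, followed by Pyr←ORBvl neurons 26 and 29 at 18 each. The other 4 carrying neurons held 7 to 9 after thinning, inside the range of the lacking neurons. The 3 highest were also the 3 carrying neurons with the most detected genes of any kind, 8680, 5920 and 4915 after thinning, and the part of overall detection in these numbers was not tested.

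**Figure D3:**
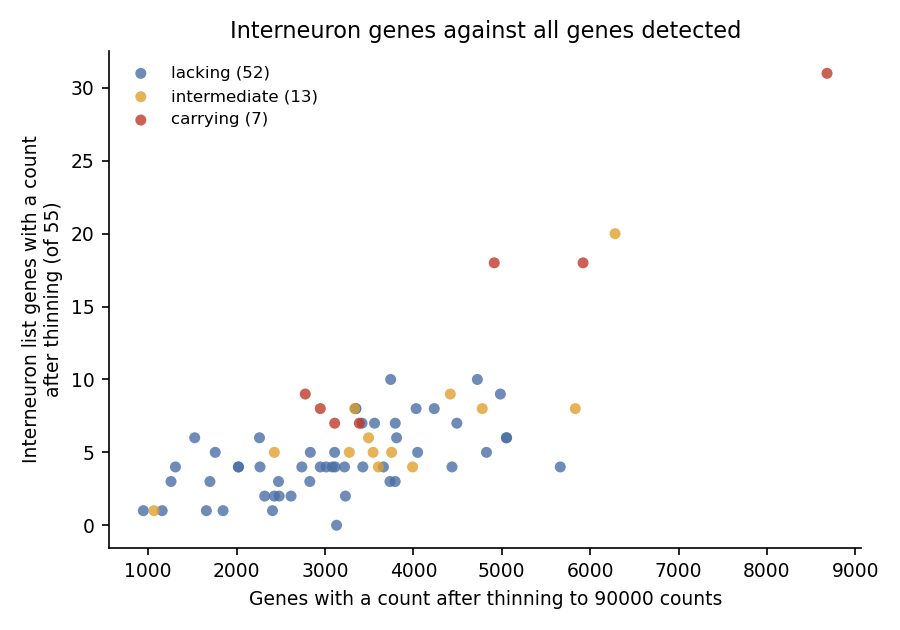
Number of interneuron list genes with a count (of 55, vertical axis) against the number of all genes with a count (horizontal axis), both after thinning to 90000 counts, for the 7 carrying, 13 intermediate and 52 lacking neurons of that depth. Pyr←LP neuron 34 is the point at 8680 genes and 31 interneuron genes, and 4 carrying neurons lie at 7 to 9 interneuron genes.

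The carrying neurons differed from each other in which interneuron genes they held. Genes were picked out here for being counted in at most 10% of the lacking neurons (45 of the 55), so their scarcity in the lacking neurons is by selection. Of these 45, 15 were at 0 in every carrying neuron. Among the 15, Dlx6, Erbb4, Igf1, Elfn1, Chodl, Chat, Htr3a and Krt73 were also at 0 in every lacking and intermediate neuron. The lacking neurons held 0 to 4 of them (median 1).

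Pyr←ORBvl neuron 3 held 2 of the 6 genes of the parvalbumin list, with 1664 counts of Pvalb and 564 of Cox6a2, while Tac1, Syt2, Pthlh and Kcns3 were at 0. It had 646 counts of Rpp25 and 197 of Btbd11, which are both enriched in parvalbumin cells, and none of Sst, Vip or Npy. It also held 840 counts of Lamp5 and 570 of Reln, genes of another class list. In the same library, Crym stood at 610 counts and Fezf2 at 70, both genes of deep layer pyramidal neurons. Pyr←LP neuron 6 held the same leading pair at lower depth, with 85 counts of Pvalb and 89 of Cox6a2, and 211 counts of Fezf2, which specifies subcortically projecting L5 neurons.

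Pyr←LP neuron 29 held a different set. Of the 45 genes it held 5, in order of count Npy (1700), Prox1 (159), Dlx2 (110), Adarb2 (10) and Dlx1, beside 92 counts of Sst. Cck and Id2, which are list genes counted in every carrying neuron, stood at 302 and 248 counts. It was the only carrying neuron without Fezf2, and its Snap25, a synaptic fusion gene of all neurons, stood at 545 CPM against 2307 to 5399 CPM in the 6 others. Its level of glial and vascular genes, 33918 CPM summed over 41 genes, was the highest of the 7.

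The averaged pair held few interneuron genes. Only Crhbp of the 45 genes was counted, with 262 and 307 counts in the 2 libraries, a gene of Sst cells that encodes a corticotropin-releasing hormone binding protein. It also held 43 and 52 counts of Sst. Fezf2 stood at 718 and 799 counts in the same libraries, and Lamp5 stood at 1107 and 1089 counts.

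Pyr←ORBvl neurons 26 and 29 held 10 of the 45 genes each and belonged to the same title prefix. In Pyr←ORBvl neuron 26 these included Synpr (26 counts), Nos1 (16) and Vip (9), beside 65 counts of Sst. In Pyr←ORBvl neuron 29 they were led by Npy (52), Prox1 (21) and Btbd11 (20), beside 36 counts of Pvalb, 25 of Sst and 178 of Lamp5. Both therefore held genes of more than 1 class. Pyr←LP neuron 34 held 28 of the 45, among them Synpr (352 counts), Vip (134), Npy (112), Crhbp (55), Ndnf (39) and Nos1 (20), together with 207 counts of Sst and 29 of Pvalb, which covers the Pvalb, Sst, Vip and Lamp5 classes in 1 library.

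**Figure D4:**
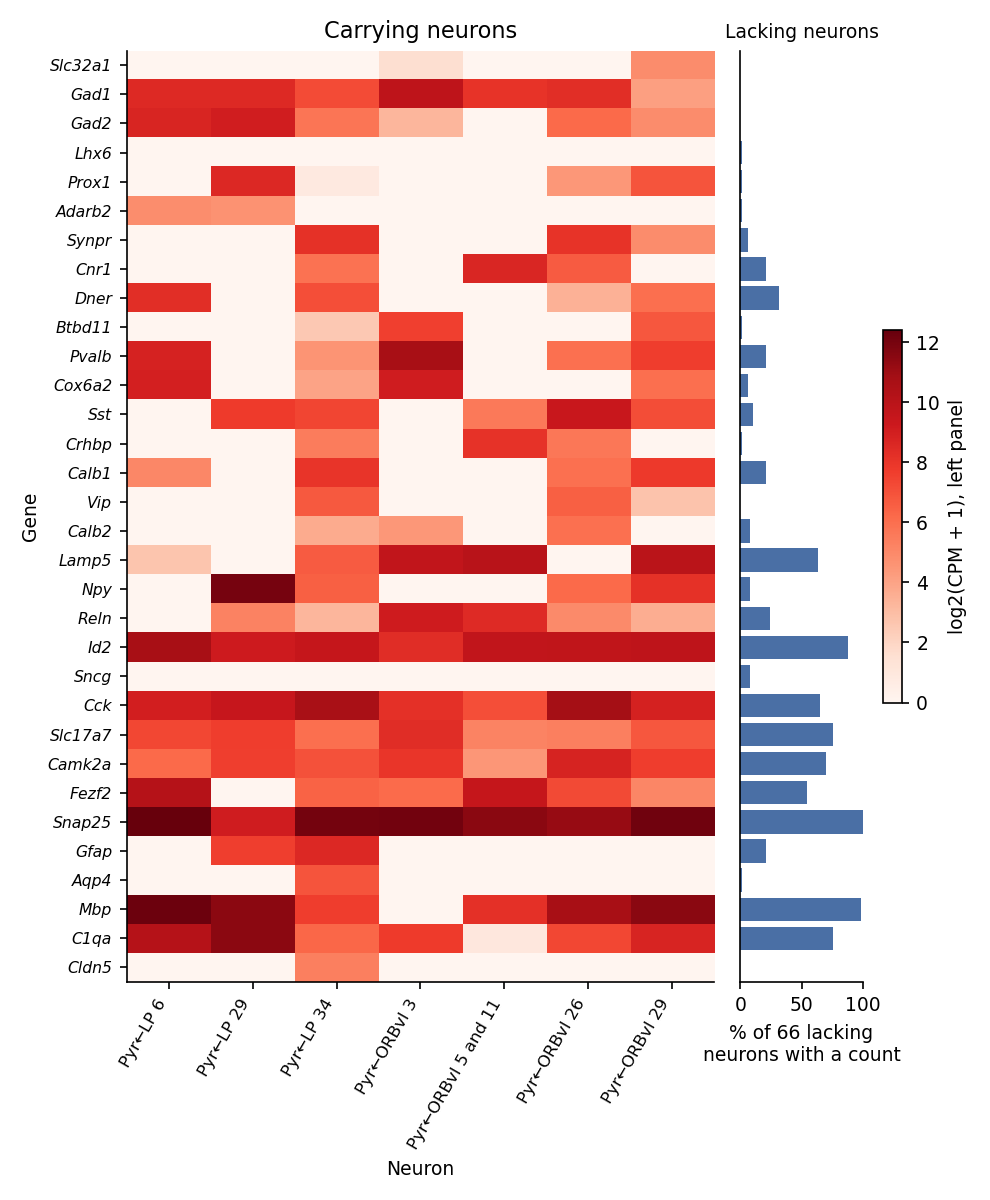
Left, log2(CPM + 1) (colour) of the 3 rule genes, of interneuron list genes counted in at least 3 carrying neurons and of the defining genes in the 7 carrying neurons; right, percentage of the 66 lacking neurons with a count of the same gene (bars). Pvalb and Cox6a2 are highest in Pyr←ORBvl neuron 3 and Pyr←LP neuron 6, Npy in Pyr←LP neuron 29, and Slc17a7, Camk2a and Snap25 are counted in every carrying neuron.

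The label of pyramidal neuron was checked against excitatory markers. Every carrying neuron held counts of Slc17a7, at 35.9 to 324 CPM (median 111), and of Camk2a, the postsynaptic kinase subunit of excitatory neurons, at 21.4 to 435 CPM (median 198). The lacking neurons held Slc17a7 in 50 of 66 and Camk2a in 46 of 66, with medians of 96.1 and 38.1 CPM. Neither was called, with log2 fold changes of −0.11 ± 1.34 (SE) and 0.30 ± 1.30 (SE) and adjusted p-values of 0.999 by edgeR. With these errors, a change of several fold in either direction was not detectable.

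All 20 excitatory neuron genes passed the filter and none was called, with a median log2 fold change of −0.14 beside −0.13 over all genes tested. Of the 12 L5 pyramidal genes, 11 passed and none was called, with a median of 0.11. Fezf2 was counted in 6 of 7 carrying and 36 of 66 lacking neurons (log2 fold change 0.86 ± 1.24, SE). The lowest unadjusted p in that list was that of Bcl6, at 0.00204 (edgeR, adjusted p = 0.264), and 66.9% of its summed CPM came from the averaged pair. The 11 pan-neuronal genes all passed, none was called, and their median was 0.31; Snap25 was counted in every neuron of both groups, with medians of 4228 and 3418 CPM. Of 8 fast-spiking channel genes 7 passed, none was called, and their median was −0.65, although Kcnc1 and Kcna1 are characteristic of Pvalb cells. Of 5 glutamate receptor subunit genes enriched in interneurons, only Gria4 passed, at −0.97.

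Genes of non-neuronal cells were present in both groups. Summed over 41 astrocyte, oligodendrocyte lineage, microglia and vascular genes, carrying neurons held 826 to 33918 CPM (median 8166) and lacking neurons 215 to 53432 (median 5566). None of the 22 of these genes that passed the filter was called, and the list medians were 0.45 for astrocytes (8 of 11 tested), 0.60 for the oligodendrocyte lineage (5 of 11) and 0.40 for microglia (9 of 10). No vascular gene passed. The range of the carrying neurons lay inside that of the lacking neurons, and the part of these cells' RNA in the results above was not tested.

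By defining marker, Mbp (myelin) was counted in 6 of 7 carrying and 65 of 66 lacking neurons, and C1qa (microglial complement) in 7 and 50. Gfap, an astrocyte filament gene, was counted in 2 of 7 and 14 of 66. Other astrocyte genes were less even. Gja1, a gap junction gene, was counted in 3 of 7 and 0 of 66, Mlc1 in 3 of 7 and 5 of 66, and the glutamate transporter gene Slc1a3 in 4 of 7 and 16 of 66, at a log2 fold change of 2.78 ± 1.29 (SE; edgeR, adjusted p = 0.845). Other members leaned the other way, Slc1a2 at −1.88 with counts in 4 of 7 and 46 of 66, and Aldh1l1 at −2.11 with counts in 1 of 7 and 11 of 66. These 5 were chosen after their values were seen, and their part in the results above was not tested. Aqp4, an astrocyte water channel gene, was counted in 1 of 7 and 1 of 66, and Cldn5, an endothelial tight junction gene, in 1 of 7 and 0 of 66. The single carrying neuron with Aqp4 and Cldn5 was Pyr←LP neuron 34, which also held 467 counts of Gfap and 898 of the pericyte gene Vtn. Without that neuron and without the pair, Npy, Gm15964 and Alcam of the 7 genes still passed the filter and were called by edgeR. These 3 held a small part or none of their counts in the neurons left out and the other 4 could not be tested, so this does not show whether the calls rest on those neurons. The activity and stress genes, such as Fos, Arc and Nr4a1, gave 10 of 11 tested and none called, with a median of 0.40.

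The intermediate neurons were compared with the same 66 lacking neurons, which both comparisons therefore share. Of 9048 genes tested 108 were called (1.19%), 20 higher (0.221%) and 88 lower (0.973%). DESeq2 called 17, all lower. Of the 88 lower genes called by edgeR, 72 were at 0 in all 17 intermediate neurons and 83 were counted in at most 1. These 83 passed the filter almost wholly through the lacking neurons, which favoured this direction. The 3 with the smallest p, Hars2, Fbxo4 and Smarcad1, were counted in 16, 18 and 13 of the 66 lacking neurons and in 0 of 17, which allows a share of neurons with a count of up to 17.6% (edgeR, adjusted p = 0.00809 for each). The 3 higher genes with the smallest adjusted p were Gon4l (log2 fold change 6.44 ± 1.00, SE; 4 of 17 against 13 of 66), 2610203C20Rik (5.87 ± 1.00, SE; 7 of 17 against 13 of 66) and Mn1 (4.69 ± 0.98, SE; 9 of 17 against 14 of 66). The highest intermediate neuron stood at 3170.1 CPM for Gon4l, 3178 for 2610203C20Rik and 3536 for Mn1. The medians of the intermediate neurons with a count were 366, 35.8 and 54.4 CPM. These fold changes therefore rested largely on high values in few neurons. None of the 6 named genes was called by DESeq2 or belongs to a list. The only list gene called was Tcerg1l, an L5 gene, at 0 in all 17.

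Side by side with the carrying neurons, each of the 7 genes was counted in a smaller share of the intermediate neurons, which follows in part from their having been picked for the carrying neurons. Of the 7, 4 could be tested there, and Alcam was called, at a log2 fold change of 3.56 ± 0.96 (SE; edgeR, adjusted p = 0.0226; 6 of 17 neurons). Cox6a2 was at 2.91 ± 0.92 (SE; adjusted p = 0.111; 6 of 17), Npy at 2.21 ± 0.99 (SE; adjusted p = 0.56; 5 of 17) and Gm15964 at −0.64 ± 0.94 (SE). Sst stood at 2.20 ± 1.02 (SE; 5 of 17) and Pvalb at 0.79 ± 1.11 (SE; 10 of 17), neither called. Of the 17 intermediate neurons 15 held counts of 1 rule gene only, and Gad1 was counted in 12 of the 17.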

How the data were processed

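The deposited tables held counts and FPKM for 91 neurons. The authors aligned reads with STAR 2.5.3 to GRCm38 (mm10), removed PCR duplicates and counted uniquely aligned reads per RefSeq gene to give the deposited counts (34745 rows, of which 126 share a symbol and were kept apart); the kit has no molecular identifiers, so counting errors are lower bounds. The FPKM values deposited by the authors equal each count over total counts and a fixed gene length, and were used for the 3 rule genes only. No column was left unassigned.

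The carrying, lacking and intermediate groups follow the sum of log2(count + 1) of Slc32a1, Gad1 and Gad2. The members and gene lists were chosen with earlier results of these data known. Totals ran from 2410 to 1948982 counts per neuron (median 423999), and a fold change in a gene counted in few neurons has a wide error at this number of neurons. Genes for which 7 or more fitted neurons held 5 or more counts were tested with edgeR 4.0.16 (TMM, glmQLFit with robust estimation, glmQLFTest; R 4.3.3), the neuron being the unit, as in the study; TMM factors ran from 0.371 to 3. The rule genes stayed in the normalization and out of the tests. Alternatives used limma 3.58.1 on log2(CPM + 1), DESeq2 1.42.0, Fisher's exact test on detection, other filters, groups and covariates. Per-neuron tests and thinning used scipy and numpy; CPM printed in the text is the count scaled to a total of 1000000 per neuron, without TMM. Exon overlaps are from GENCODE and positions from RefSeq, both on GRCm38. The fitting code was tested on simulated data.

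Values are given for the 3 rule genes, for list genes called, and for 16 defining genes (Pvalb, Sst, Vip, Lamp5, Sncg, Adarb2, Lhx6, Slc17a7, Camk2a, Fezf2, Snap25, Gfap, Aqp4, Mbp, C1qa, Cldn5). Beyond the lists, up to 10 genes per direction with the smallest adjusted p are named if limma also gave an adjusted p under 0.05 and more than 50% of the higher group held a count; for the intermediate neurons, 3 per direction. Other genes named were chosen after their values were seen. Values of some list genes are not reported here.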

Additional observations from a re-analysis of the deposited data

Results flagged for a closer look

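Over the 7 carrying neurons, 20 measures were examined for 1 neuron far from the rest. The gap to its nearest neighbour was divided by the whole range, with a critical value of 0.568, and 4 were found. For normally distributed values chance gives about 1 in 20 such groups. That rate does not apply here, because several measures hold repeated zeros and some genes were called in these same neurons. The 4 are therefore a description. Pyr←LP neuron 34 had by far the most detected genes (gap over range 0.635), which after thinning to 90000 counts became 0.468, below the critical value. Gm15964 was high in Pyr←ORBvl neuron 3 (0.778), Snap25 was low in Pyr←LP neuron 29 (0.629), and Mbp was at 0 in Pyr←ORBvl neuron 3 while all others held it (0.628).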

How the results depend on the processing

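The 7 genes called between carrying and lacking neurons depended on the test and the filter. Limma on log2(CPM + 1) called 42 genes, all higher, beside a median log2 fold change of 0.82 over all genes on that scale. DESeq2 called 45, all lower, of which 15 were at 0 in every carrying neuron and 29 were counted in 1. Without its outlier replacement it called 45, of which 44 were at 0 in every carrying neuron. None of either was among the 7. Fisher's exact test on detection called 0 of 8800 genes (955 at an unadjusted p under 0.05) and, without a filter, 1, Zfp536, a zinc finger gene counted in 5 of 7 carrying and 0 of 66 lacking neurons, named after its values were seen. A filter of 5 counts in 10 neurons, which none of the 7 passed, gave 0 of 7186 (204 unadjusted), in 4 neurons 33, and no filter 1091, of which 796 were counted in 1 carrying neuron. A rule sum above 10 gave 1, neurons of at least 100000 counts 1, the pair kept as 2 neurons 15, the number of detected genes as a covariate 20 and the neuron type 39. The title prefix as a block, with the pair under its first prefix, gave 0 of 3779 (250 unadjusted, 232 of them higher; none of the 7 was tested), and counts summed per prefix 0 (edgeR). Leaving out each carrying neuron gave 2 to 5 genes, all among the 7: 2 of the 3 still tested without Pyr←ORBvl neuron 3, 3 of 3 without Pyr←LP neuron 34, 3 of 4 without Pyr←LP neuron 6 or Pyr←ORBvl neurons 26 or 29, and 5 of 6 without Pyr←LP neuron 29. The others then fell under the filter. Of 25 cases in which the neuron or pair left out held 5 or more counts of one of the 7, the gene could be tested in 5, so these counts do not bear on how far a call rests on 1 neuron. Leaving out the pair and Pyr←LP neuron 34 gave 3 of 3. DESeq2 size factors, library totals, all neurons up to a sum of 7, the rule on TPM, the pair left out and neurons of at least 10000 counts gave 5 to 10. Against all neurons up to a sum of 7, however, only 3 of the 7 were among the 8 called, and Cox6a2 (4.12, adjusted p = 0.198), Pcp4l1, Alcam and Nkap were not. Under the 15 alternatives that tested all 7, the call was kept in 10 for Npy and Pik3c3, 9 for Cox6a2 and Pcp4l1, 8 for Alcam and Gm15964 and 7 for Nkap. Gm15964 turned to −1.25 with DESeq2 and to −1.11 without Pyr←ORBvl neuron 3, and was at 5.28 to 5.29 without any 1 of the others. With DESeq2 without its outlier replacement Gm15964 was at 5.49 and not called.

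The difference in detected genes (608, carrying minus lacking median) still passed when a gene needed 5 counts (906, p = 0.0487) and no longer passed after thinning to 100000 counts (128, p = 0.252) or 90000 (276, p = 0.0997), against all neurons up to a sum of 7 (444, p = 0.0628), or without Pyr←LP neuron 34 (437, p = 0.0778; exact permutation tests). Intermediate against lacking neurons gave 17 genes with DESeq2, all lower, and 28 with the filter of 10 neurons, 5 higher and 23 lower. The thinning to 90000 counts, the floor of 10000 counts, the neuron left out of the detection test, the fit without the pair and Pyr←LP neuron 34, the unfiltered Fisher test and the second DESeq2 fit were chosen after seeing the data. No paired analysis was possible by replicate number, because the labels give none that links neurons of the 2 groups, and the title prefix served as the block above. The causes of these changes were not tested.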
